A study of Mus musculus with 7 samples.

Results

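The 35 genes described here were chosen by symbol to cover peroxisome assembly, the acyl-CoA oxidases, the Abcd transporters and further peroxisomal enzymes. A matching symbol does not place every product in the peroxisome, as for Abcd4 below. They were found by name among the 12958 gene symbols measured in glomeruli, the filtering units of the kidney. All symbols starting with Pex (14 found), Acox (3) or Abcd (3) followed by a digit were taken, together with 15 enzymes given by name, each of which was found. Pex2, Pex11a, Pex11g and Abcd2 were not analysed here. RNA was sequenced from magnetically isolated glomeruli of 7 male BALB-C mice aged 14 weeks, 1 library per mouse. Doxycycline was given to every mouse, the controls included, with the food and the water, starting at 8 weeks of age and lasting 6 weeks. The 3 mice of the knockdown group carried an siRNA transgene against Shroom3, an actin-binding protein, and the 4 controls were littermates without it. Neither the promoter that drives the siRNA nor the cells it is active in are stated in the sources used here. The series title places the study in the context of Shroom3, the kinase Fyn and albuminuria. The question here is what the peroxisomal genes did between these groups.

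Peroxisomes are small organelles bounded by a single membrane. They shorten very long, branched and dicarboxylic fatty acids, make ether lipids, and hold oxidases that release hydrogen peroxide together with the catalase that removes it. The peroxins, encoded by the Pex genes, recognise matrix enzymes by short targeting signals, carry them through a pore in the membrane, insert membrane proteins and divide the organelle. In the kidney, peroxisomes are most abundant in proximal tubule cells, and many of their enzymes are induced through the nuclear receptor PPAR alpha.

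Hao2 and Scp2 rose in knockdown glomeruli, and Nudt19, Acox3 and Acox2 fell, while none of the 14 Pex genes passed. On the linear scale Hao2 was 3.61-fold and Scp2 2.38-fold higher, and Nudt19 was 1.96-fold, Acox2 1.60-fold and Acox3 1.45-fold lower. These are 5 of 35 members (14.3%) past an adjusted p of 0.05 by limma with Benjamini-Hochberg adjustment over all genes, where 3.02% of all 12958 genes passed. The members were chosen with earlier results of these data known. This share and those below therefore describe the members and were not tested as an excess. By direction 2 members were higher, against 0.996% of all genes, and 3 were lower, against 2.02%. The median log2 fold change of the members was -0.00033, beside 0.02 over all genes, and 17 members had a positive and 18 a negative value. The median thus lay near 0, with calls in both directions. Without knockdown replicate 2, or without control replicate 4, only 1 member was lower, while both higher members passed. Over 18 alternative settings, Acox2 was lost in 10, Acox3 in 5, Nudt19 in 1, and Hao2 and Scp2 in 0. With the style of the sample titles, described below, in the model, Acox2 did not pass (adjusted p = 0.0827 by limma). In bulk RNA, fewer cells of a type and less RNA per cell cannot be told apart.

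The sequences around a RefSeq start of each of these 5 genes are shown because the genes moved in opposite directions. Each runs from 250 bases before to 50 bases after a start in RefSeq on GRCm38.p6, 5′ to 3′ on the gene's strand. Capitals mark, on either strand, AGGTCA, the hexamer bound by nuclear receptors such as PPAR alpha, GTTAAT, part of the element bound by the tubule factors of the HNF1 family, and GGGCGG, the GC box. Overlapping copies were counted. Acox2 had a further start in the table, not printed. The RefSeq start of Scp2 lies 26.5 kb inside the gene span that GENCODE gives, 15 bases from the start of a GENCODE transcript. The Nudt19 start lies 376 bases inside its span, and the nearest GENCODE transcript start is 376 bases away. For Acox2 the printed start lies 334 bases inside the span, 187 bases from the nearest transcript start. The start not printed is 7 bases from one. The printed windows of Scp2, Nudt19 and Acox2 thus lie inside the gene span and not at its outer end.
Hao2, chr3:98893181-98893480, minus strand: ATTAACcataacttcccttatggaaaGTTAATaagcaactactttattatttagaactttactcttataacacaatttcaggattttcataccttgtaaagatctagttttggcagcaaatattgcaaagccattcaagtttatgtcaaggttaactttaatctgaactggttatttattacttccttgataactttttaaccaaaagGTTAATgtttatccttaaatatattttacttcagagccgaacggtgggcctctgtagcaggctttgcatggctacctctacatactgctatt
Scp2, chr4:108118498-108118797, minus strand: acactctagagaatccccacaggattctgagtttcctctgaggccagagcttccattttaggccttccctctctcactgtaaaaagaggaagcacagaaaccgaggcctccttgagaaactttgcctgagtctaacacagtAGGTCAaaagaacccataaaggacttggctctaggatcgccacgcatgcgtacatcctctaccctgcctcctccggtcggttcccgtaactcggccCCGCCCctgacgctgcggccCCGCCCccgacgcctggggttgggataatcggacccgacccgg
Nudt19, chr7:35555879-35556178, minus strand: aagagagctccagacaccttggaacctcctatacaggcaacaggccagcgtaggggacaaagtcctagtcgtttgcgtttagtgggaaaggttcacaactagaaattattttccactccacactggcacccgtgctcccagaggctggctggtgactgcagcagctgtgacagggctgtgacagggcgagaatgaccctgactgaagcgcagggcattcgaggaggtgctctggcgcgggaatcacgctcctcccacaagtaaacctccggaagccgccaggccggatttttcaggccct
Acox3, chr5:35582784-35583083, plus strand: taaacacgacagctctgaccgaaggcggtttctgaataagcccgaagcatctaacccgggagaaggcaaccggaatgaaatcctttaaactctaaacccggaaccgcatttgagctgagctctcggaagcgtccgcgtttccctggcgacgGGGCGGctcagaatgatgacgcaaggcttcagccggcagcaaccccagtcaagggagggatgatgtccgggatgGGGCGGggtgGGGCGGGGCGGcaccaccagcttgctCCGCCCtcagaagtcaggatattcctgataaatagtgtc
Acox2, chr14:8258970-8259269, minus strand: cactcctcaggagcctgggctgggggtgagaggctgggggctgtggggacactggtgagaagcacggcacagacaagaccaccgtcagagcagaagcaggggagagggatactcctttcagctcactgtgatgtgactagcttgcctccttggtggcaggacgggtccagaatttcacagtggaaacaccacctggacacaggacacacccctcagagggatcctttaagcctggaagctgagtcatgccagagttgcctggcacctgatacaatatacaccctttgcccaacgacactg

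The 5 windows differed in these letters. Hao2 held 3 copies of GTTAAT, a hexamer found in 7.1% of the 32851 windows of the same length, and no GC box. The Scp2 window contained 1 AGGTCA, found in 16.3% of all windows, and 2 GC boxes, found in 35.7%. Acox3 carried 5 GC boxes, some of which overlap. The shares of windows given here count windows with at least 1 copy. They give no background for 3 or 5 copies. Neither Nudt19 nor Acox2 held any of these hexamers in the windows searched. The direct repeat of AGGTCA, any base (N) and AGGTCA, the arrangement PPAR alpha binds with its partner, was in 0.0396% of all windows and in none of the 31 windows of the 24 members with an entry. Of these 31 windows, 12.9% held AGGTCA, 6.45% GTTAAT and 51.6% the GC box. A match describes letters and not a bound site.

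Hao2 encodes a hydroxyacid oxidase of the peroxisome matrix that oxidises medium- and long-chain 2-hydroxy acids and releases hydrogen peroxide. The gene (ENSMUSG00000027870.8) lies on GRCm38 chromosome 3 from 98874521 to 98893239 on the minus strand. Log2 expression was 12.54, 12.42 and 11.82 in knockdown replicates 1 to 3, and 10.34, 10.73, 9.99 and 10.57 in control replicates 1 to 4. Every knockdown library lay above every control library, with the lowest knockdown value in replicate 3. The mean was 12.26 ± 0.39 (SD, n = 3) against 10.41 ± 0.32 (SD, n = 4). This is a log2 fold change of 1.85 (95% CI 1.38 to 2.33, SE 0.21; adjusted p = 0.00439 by limma). By a two-sided exact permutation test p was 0.0286, the smallest that the 35 splits of 7 libraries allow.

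Sample titles came in 2 styles, which may mark batches: 5 libraries were titled with G and the other two, knockdown replicate 3 and control replicate 4, with CB6. Over all genes, 391 passed by limma without title style in the model and 191 with it. If a batch was adjusted for before deposit, p-values given without title style, for the members above and below, are too small. Hao2 differed by 2.13 among G libraries and by 1.25 in the CB6 pair, so it was higher in both. It passed with title style in the model and in the G libraries alone (adjusted p = 0.00804 and 0.0178 by limma).

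Scp2 encodes both a sterol carrier protein and, from a longer transcript, the thiolase that cleaves branched-chain acyl-CoAs and bile acid intermediates. The tables give 1 value for the symbol, so the forms were not separated. Scp2 (ENSMUSG00000028603.15) spans 108043839 to 108144998 on chromosome 4, minus strand. Its log2 expression was 14.11, 13.76 and 13.55 in the knockdown libraries, and 12.40, 12.77, 12.42 and 12.63 in the control libraries. The groups were separated by a gap wider than the range within either of them. The rise in log2 expression was 1.25 (SE 0.14; 95% CI 0.93 to 1.57; adjusted p = 0.00434 by limma; p = 0.0286 by exact permutation). It was 1.41 among G libraries and 0.92 in the CB6 pair, and Scp2 also passed with title style in the model and in the G libraries alone.

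The annotation overlaps Scp2 with Podn, which encodes a small matrix proteoglycan, on the same strand (108014791 to 108096445). Podn rose as well, with means of 8.61 ± 0.15 (SD, n = 4) in control and 9.30 ± 0.16 (SD, n = 3) in knockdown mice and a log2 fold change of 0.69 (adjusted p = 0.0171 by limma). How reads in the shared stretch were assigned is not stated, so the values of Scp2 and Podn cannot be called independent.

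**Figure D1:**
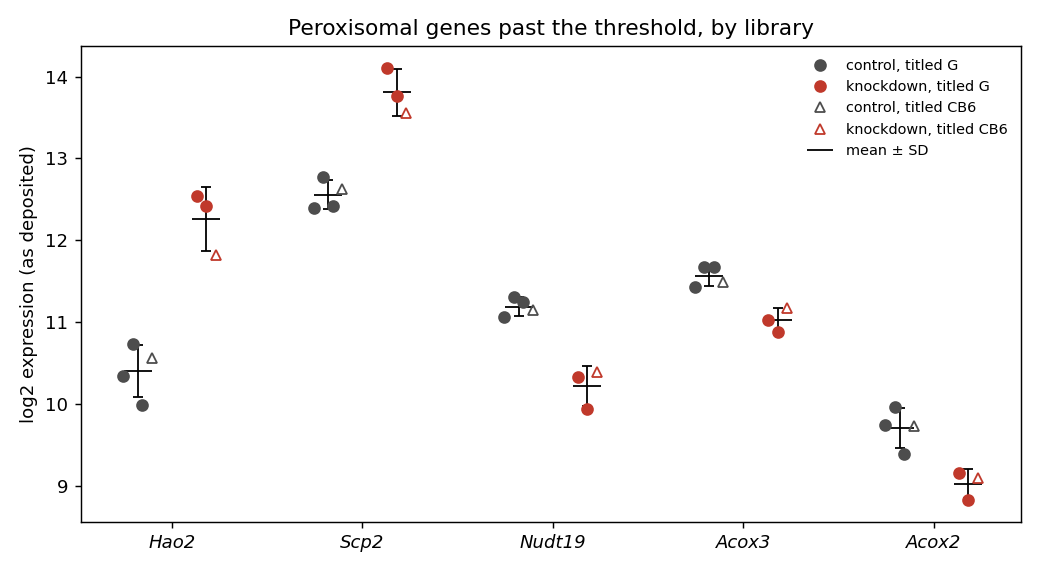
Log2 expression (y axis, as deposited) of the 5 members past the threshold in each of the 7 libraries: grey for the 4 controls, red for the 3 knockdown libraries, open triangles for the libraries titled CB6, and bars for the mean ± SD. The groups do not overlap for any of the 5 genes, and the knockdown library titled CB6 is the lowest of its group for Hao2 (11.82) and Scp2 (13.55) and the highest for Nudt19 (10.39) and Acox3 (11.18).

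The other thiolases, which cleave straight-chain acyl-CoAs at the same step, did not pass. Acaa1a had a log2 fold change of 0.19 and Acaa1b of 0.0453 (adjusted p = 0.406 and 0.921 by limma). These are near-identical paralogs on chromosome 9, so reads could have been split between them and both values are uncertain. Within each library, the log2 difference of Scp2 minus Acaa1a ran from 5.83 to 6.15 in knockdown and from 4.74 to 5.31 in control libraries. The same held for Scp2 minus Acaa1b, from 3.90 to 4.60 against 2.93 to 3.40. These pairs were chosen after the values were seen and were not tested. They show only that Scp2 shifted against both paralogs in each library.

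Among the acyl-CoA oxidases, which carry out the entry step of peroxisomal fatty acid oxidation, Acox2 and Acox3 fell. Both act on branched-chain substrates, and Acox2 also on bile acid intermediates. Acox3 (chromosome 5, 35583040 to 35615352, plus strand) was at 11.03, 10.88 and 11.18 in knockdown and at 11.43, 11.67, 11.68 and 11.49 in control libraries. All knockdown values lay below all control values. The log2 fold change was -0.54 (SE 0.09; adjusted p = 0.0204 by limma; p = 0.0286 by exact permutation), with -0.64 among G libraries and -0.31 in the CB6 pair. Acox3 did not pass without knockdown replicates 1 or 2 or control replicate 4 (adjusted p = 0.0695, 0.0905 and 0.0502 by limma). An antisense gene overlaps its start, and the use of strand in counting is not stated.

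Acox2 (chromosome 14, 8225511 to 8259353, minus strand) was at 9.16, 8.83 and 9.10 in knockdown and at 9.75, 9.97, 9.39 and 9.73 in control libraries. The groups did not overlap, with control replicate 3 nearest to the knockdown libraries. The log2 fold change was -0.68 (SE 0.14; adjusted p = 0.0407 by limma; p = 0.0571 by exact permutation). It was -0.71 among G libraries and -0.63 in the CB6 pair. With title style as a covariate Acox2 no longer passed (adjusted p = 0.0827 by limma), and it was also lost on leaving out any library but control replicate 3. In the libraries titled G alone neither Acox2 nor Acox3 passed (adjusted p = 0.297 and 0.0945 by limma).

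**Figure D2:**
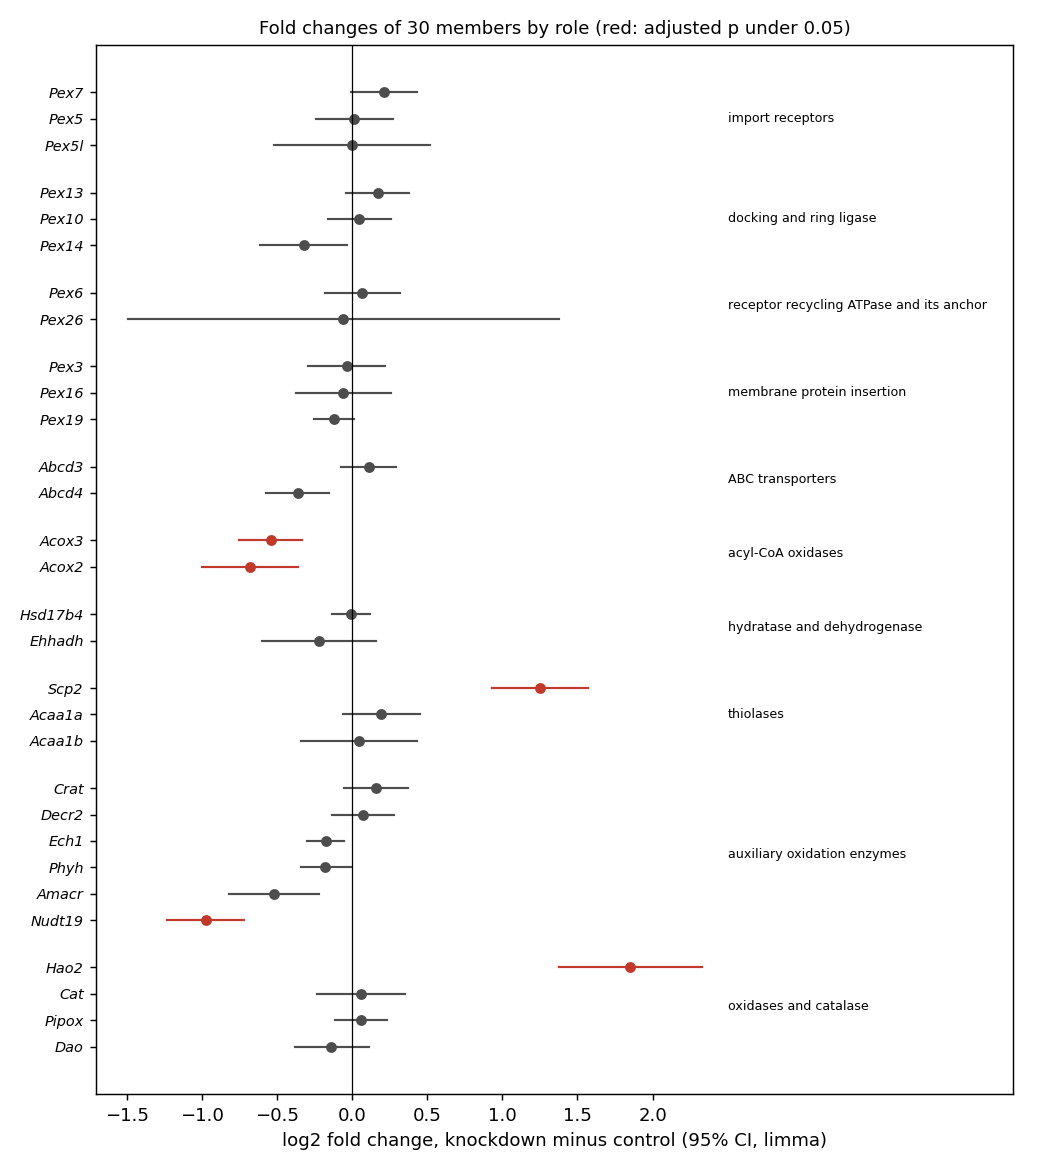
Log2 fold change (x axis, knockdown minus control) with its 95% confidence interval for each of the 30 members described singly (y axis), grouped by role, with members past an adjusted p of 0.05 in red. The Pex genes sit between -0.32 and 0.21 around 0, while Hao2 (1.85), Scp2 (1.25), Nudt19 (-0.97), Acox2 (-0.68) and Acox3 (-0.54) stand away from 0.

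Nudt19 encodes a peroxisomal hydrolase that cleaves coenzyme A and its esters and is prominent in kidney. The gene (chromosome 7, 35547185 to 35556304, minus strand) had log2 expression of 10.33, 9.94 and 10.39 in knockdown and of 11.06, 11.31, 11.25 and 11.15 in control libraries. The highest knockdown value lay below the lowest control value. The log2 fold change came to -0.97 (SE 0.11; 95% CI -1.23 to -0.72; adjusted p = 0.00442 by limma; p = 0.0286 by exact permutation). Nudt19 differed by -1.07 among G libraries and by -0.77 in the CB6 pair, and in the G libraries alone it just missed the threshold (adjusted p = 0.0546 by limma). An antisense gene overlaps its start, as for Acox3. Of the related hydrolases Nudt7, another peroxisomal coenzyme A diphosphatase, and Nudt12 of NADH turnover, neither passed, with log2 fold changes of 0.32 and -0.0899 (adjusted p = 0.37 and 0.522 by limma).

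The remaining enzymes around the oxidation spiral did not pass. Amacr, the racemase that prepares branched-chain acyl-CoAs for oxidation, came nearest, at 9.82, 9.25 and 9.53 in knockdown against 9.94, 10.20, 9.95 and 10.13 in control libraries. Its groups did not overlap (log2 fold change -0.52, 95% CI -0.82 to -0.22; adjusted p = 0.0782 by limma; p = 0.0286 by exact permutation), and it passed without knockdown replicate 1 (adjusted p = 0.0376 by limma). Ech1, a dienoyl-CoA isomerase, and Phyh, the hydroxylase that starts alpha-oxidation of phytanic acid, differed by -0.17 and -0.18, also without overlap. Crat, the carnitine acetyltransferase, differed by 0.16 and Decr2, the peroxisomal dienoyl-CoA reductase, by 0.0717.

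Of the enzymes that hydrate and dehydrogenate, Ehhadh had the smaller p. It was at 11.22, 10.82 and 11.27 in knockdown and 11.26, 11.76, 11.11 and 11.18 in control libraries, with overlapping groups (log2 fold change -0.22, 95% CI -0.60 to 0.16; adjusted p = 0.535 by limma; p = 0.514 by exact permutation). Control replicate 2 held its highest value. Hsd17b4, the multifunctional enzyme for branched-chain and bile acid intermediates, lay between 10.73 and 10.89 in knockdown and between 10.77 and 10.86 in control libraries. Its 95% confidence interval ran from -0.13 to 0.12 on the log2 scale.

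The other oxidases and catalase did not pass. Pipox, which oxidises pipecolic acid and sarcosine, differed by 0.0601, Dao, the D-amino acid oxidase, by -0.14, and Cat, catalase, by 0.0614 (adjusted p = 0.719, 0.555 and 0.848 by limma). Their 95% confidence intervals ran from -0.11 to 0.23, from -0.38 to 0.11 and from -0.23 to 0.35. The direction of Cat differed between title styles, with 0.17 among G libraries and -0.20 in the CB6 pair. In each library the log2 difference of Hao2 minus Cat lay from -1.43 to -0.82 in knockdown and from -3.21 to -2.76 in control glomeruli, again a pair chosen after the values were seen.

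Among the ABC transporters, Abcd4 had the smallest p. It carries cobalamin out of lysosomes and belongs to the family by sequence. Its values were 8.43, 8.67 and 8.64 in knockdown and 8.82, 8.99, 9.01 and 8.93 in control libraries, without overlap (log2 fold change -0.36, 95% CI -0.57 to -0.15; adjusted p = 0.0801 by limma; p = 0.0286 by exact permutation). Abcd3, which imports branched-chain and dicarboxylic acyl-CoAs and bile acid intermediates, differed by 0.11. Its 95% confidence interval ran from -0.07 to 0.29.

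None of the 14 Pex genes passed by limma, where 3.02% of all genes did, and 2 of them (14.3%) had an unadjusted p under 0.05, beside 18.4% of all genes. With 14 genes, these shares do not set the Pex genes apart from the background. Single values are given for 11 of them, whose log2 fold changes ran from -0.32 to 0.21. Among the import receptors, Pex7, which carries enzymes with the amino-terminal targeting signal, had the smallest p. It was at 8.95, 9.15 and 9.04 in knockdown and 8.81, 9.03, 8.70 and 8.81 in control libraries, with overlapping groups (log2 fold change 0.21; adjusted p = 0.297 by limma; p = 0.0857 by exact permutation). Pex5, the receptor of the carboxy-terminal signal, differed by 0.0155 (95% CI -0.24 to 0.27). Its relative Pex5l ran from 6.34 to 6.97 in knockdown and from 6.40 to 7.17 in control libraries, and differed by 0.35 among G libraries and by -0.83 in the CB6 pair.

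At the import pore, Pex10, a subunit of the ubiquitin ligase that recycles the receptors, differed by 0.0494 (95% CI -0.16 to 0.26). The docking proteins pointed in opposite directions without passing, Pex13 at 0.17 and Pex14 at -0.32. For Pex13 the groups did not overlap, though 10.07 was the value of both the lowest knockdown and the highest control library after rounding.

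Pex6, a subunit of the ATPase that pulls receptors back out of the membrane, differed by 0.0697 (95% CI -0.18 to 0.32). Pex26, which anchors that ATPase, was the described member with the widest spread, from 3.17 to 5.85 in knockdown and from 3.90 to 5.60 in control libraries. These values are near the lowest in the tables (2.32), and its 95% confidence interval of -1.49 to 1.38 leaves its direction undetermined.

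Membrane protein insertion depends on Pex19, Pex3 and Pex16. Pex19, the chaperone of newly made membrane proteins, was at 10.46, 10.50 and 10.52 in knockdown and 10.70, 10.62, 10.53 and 10.60 in control libraries, without overlap (log2 fold change -0.12; adjusted p = 0.31 by limma; p = 0.0571 by exact permutation). Its docking receptor Pex3 differed by -0.0313 and Pex16 by -0.0577.

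In all, 11 of 35 members (31.4%) had groups that did not overlap, where 18.4% of all genes did. Of these, 3 were higher in knockdown (10.8% of all genes): Hao2, Scp2 and Pex13. The other 8 were lower (7.55% of all genes): the 3 that fell, Amacr, Abcd4, Ech1, Phyh and Pex19. The median SD of the members on the log2 scale was 0.13 over control libraries, beside 0.14 over all genes, and 0.13 over knockdown libraries, beside 0.11. With title style in the model, 4 of the 5 calls remained, where 1.47% of all genes passed. These were 2 higher members, against 0.34% of all genes, and 2 lower ones, against 1.13%. The libraries titled G alone left 2 calls, Hao2 and Scp2, where 0.309% of all genes passed. Both were higher, against 0.108% of all genes, and no member was lower by limma, against 0.201%. At an unadjusted p under 0.05, 6 members (17.1%) were lower there, against 5.73% of all genes.

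**Figure D3:**
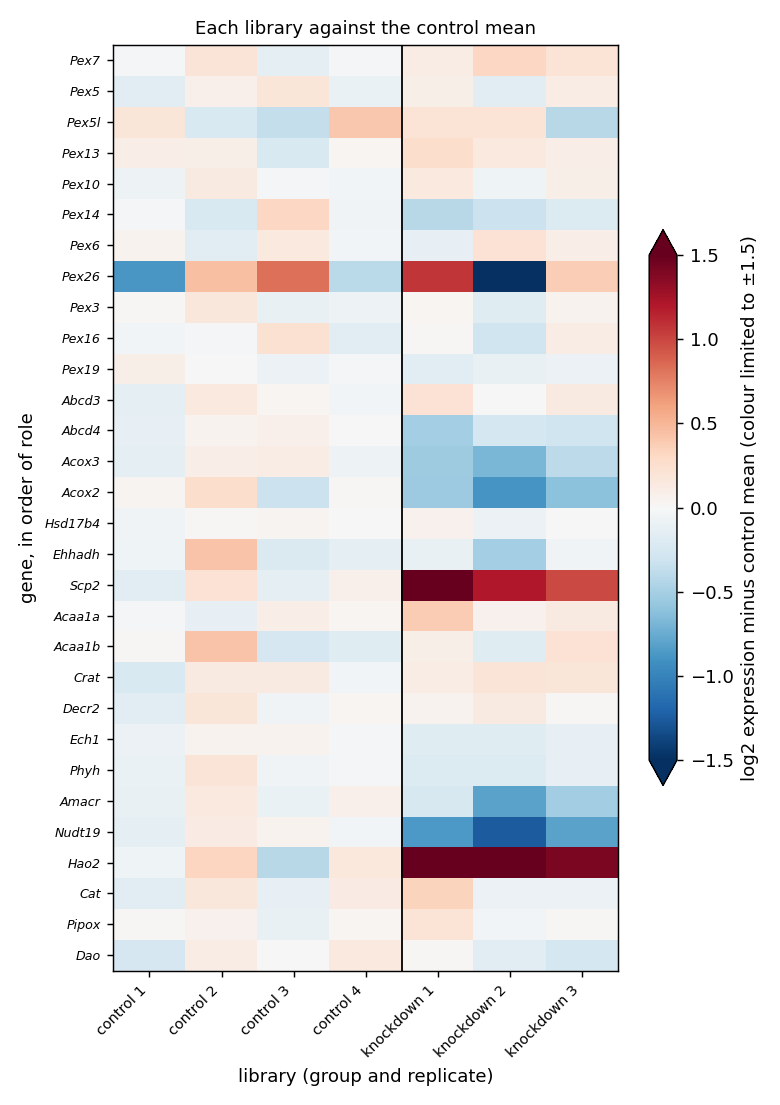
Log2 expression of each of the 30 members described singly (rows, in order of role) in each of the 7 libraries (columns), minus the mean of the 4 controls, with red for higher and blue for lower and the colour limited to ±1.5. Hao2 and Scp2 are red and Nudt19, Acox3 and Acox2 blue in each of the 3 knockdown libraries, most other rows are pale, and Pex26 changes colour within both groups.

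Of 45 further genes outside the rule that were listed as peroxisomal, 2 passed (4.44%, beside 3.02% of all genes). Whether their products also lie elsewhere in the cell was not checked. Among them 16 (35.6%) had an unadjusted p under 0.05, beside 18.4% of all genes. Hacl1, the lyase that follows Phyh in alpha-oxidation, rose (log2 fold change 0.42; adjusted p = 0.0438 by limma), and Pecr, a peroxisomal enoyl-CoA reductase, fell (-0.82; adjusted p = 0.0465). Neither passed with title style as a covariate (adjusted p = 0.105 and 0.0895 by limma). The median over these 45 genes was 0.05, with 26 positive and 19 negative. None of 17 genes of mitochondrial beta-oxidation passed by limma, with 3 (17.6%) at an unadjusted p under 0.05 and a median of -0.0028. Those with the highest mean value, Cpt1a, the carnitine palmitoyltransferase, and Acadm, the medium-chain dehydrogenase, differed by 0.11 and -0.0845.

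Of 13 measured PPAR receptors and partners, 3 (23.1%) had an unadjusted p under 0.05 and 1 (7.69%) passed, beside 18.4% and 3.02% of all genes. The coactivator gene Ppargc1a rose (log2 fold change 0.37; adjusted p = 0.034 by limma), but not with title style as a covariate (adjusted p = 0.0802). Ppara, the receptor gene, had a mean of 11.40 ± 0.15 (SD, n = 3) in knockdown mice and of 11.47 ± 0.25 (SD, n = 4) in controls. Of 14 measured PPAR alpha target genes outside the peroxisome, Cd36, a fatty acid receptor, and Ucp2, a mitochondrial carrier, fell (-1.39 and -0.75; adjusted p = 0.000199 and 0.00481 by limma), also with title style as a covariate. None passed as higher by limma, although 9 of the 14 had a positive value and the median was 0.11. In all, 2 of the 14 target genes (14.3%) passed, beside 3.02% of all genes. An unadjusted p under 0.05 was found for 6 (42.9%), beside 18.4% of all genes. The highest value was that of Cyp4a10, a fatty acid omega-hydroxylase, whose groups did not overlap (log2 fold change 1.35; adjusted p = 0.077 by limma).

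Proximal tubule markers were measured in the same libraries, since isolated glomeruli can carry tubule fragments and tubule cells hold most peroxisomes of the kidney. All 30 were measured, 11 fell and 2 rose (43.3% called by limma, beside 3.02% of all genes). In all, 21 (70.0%) had an unadjusted p under 0.05, beside 18.4% of all genes. With title style as a covariate 9 fell and 2 rose. The median log2 fold change was -0.40, with 25 negative and 5 positive. Those with the smallest p were Cyp2e1 (-3.26), Slc22a12 (-2.26) and Cyp4b1 (-1.06), which fell, and Pck1 (1.49), which rose. The log2 of their summed linear level ran from 18.37 to 18.74 in knockdown and from 18.60 to 18.99 in control libraries, with no marker near the lowest values (the lowest mean was 8.05, of Slc22a30). Such a sum weighs abundant markers most and includes Pck1, with a mean of 16.01 in knockdown and 14.52 in control libraries. Their part in the changes of Hao2, Scp2, Nudt19, Acox2 and Acox3 was not tested.

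Podocyte markers, which define the labelled tissue, were all 15 measured, with a log2 summed level of 18.10 to 18.34 in knockdown and 17.95 to 18.38 in control libraries. Among them 1 (6.67%, beside 3.02% of all genes) passed by limma, Magi2, which fell (-0.70). The median was -0.24, with 12 negative and 3 positive, beside a median of 0.02 over all genes. By limma 6 podocyte markers (40.0%) had an unadjusted p under 0.05, beside 18.4% of all genes. All 10 glomerular endothelial markers had a negative value, from -0.41 to -0.09 with a median of -0.23. Plat (-0.0932) and Ehd3 (-0.23) are named only because their mean values were highest. None of the 10 passed by limma (lowest adjusted p = 0.079), while 4 (40.0%) had an unadjusted p under 0.05, beside 18.4% of all genes. Of 8 mesangial markers 7 were negative and 5 (62.5%) had an unadjusted p under 0.05, beside 18.4% of all genes. Sfrp2 (-0.98) and Serpine2 (-0.39) fell (25.0%, beside 3.02% of all genes). Neither passed with title style as a covariate (adjusted p = 0.0644 and 0.0967 by limma). Of 12 distal nephron and collecting duct markers Slc4a1 (0.86) and Atp6v1g3 (0.56) rose (16.7%, beside 3.02% of all genes). With title style as a covariate Slc4a1 passed and Atp6v1g3 did not (adjusted p = 0.0343 and 0.087 by limma). Of 5 measured immune cell markers none passed, with 0 at an unadjusted p under 0.05, and Csf1r and Ptprc differed by 0.0034 and -0.26. The part of these cell type markers in the members' results was not tested. Shroom3 itself was not detectably lower (log2 fold change -0.19; adjusted p = 0.417 by limma), so the targeted transcript gives no check of the labels.

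**Figure D4:**
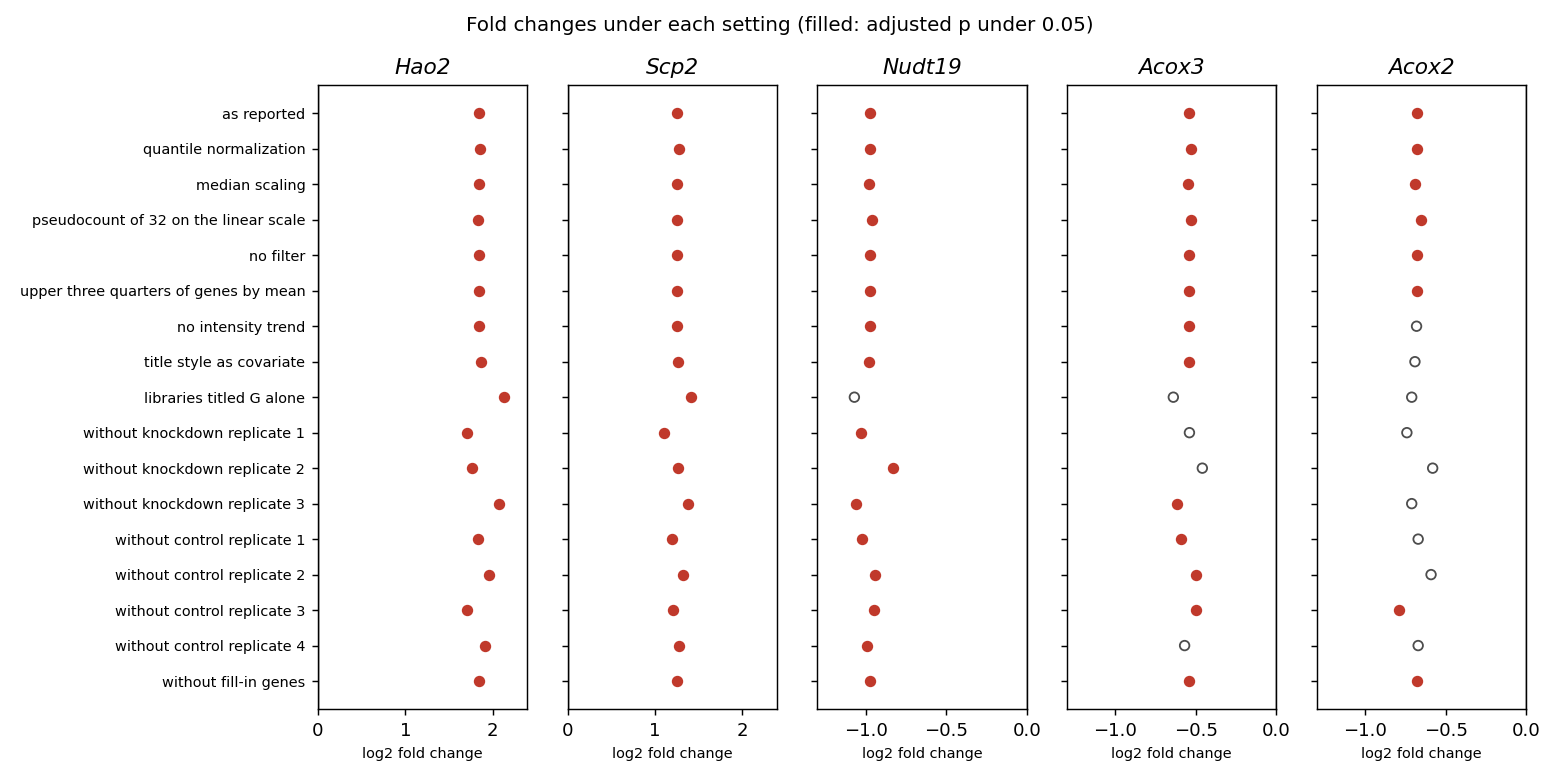
Log2 fold change (x axis, one panel per gene with its own scale from 0) of the 5 members past the threshold, as reported and under 16 other settings (y axis), with filled red points for an adjusted p under 0.05 and open points otherwise. Hao2 (1.71 to 2.13) and Scp2 (1.10 to 1.41) are filled in every row, Nudt19 is open with the libraries titled G alone, and Acox3 and Acox2 are open in several rows without a change of direction.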

How the data were processed

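Poly-A RNA of isolated glomeruli was sequenced, with ribosomal RNA depleted, per the labels. BWA and mm10 are named as aligner and build in the submitters' processing notes. How reads were counted, with or without strand, and normalized is not stated in these sources. Each library has its own table of deposited values, taken to be log2 because their antilogarithms to base 2 had nearly equal sums, and library medians were 9.15 to 9.16. Depth and counting error are unknown.

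Knockdown (n = 3) was compared with control (n = 4) over all 12958 genes with limma 3.58.1 (R 4.3.3), using an intensity trend. Adjusted p-values are Benjamini-Hochberg values over all genes, called under 0.05. Requiring 3 libraries above the lowest value removed 0 genes. Exact permutation tests were two-sided over 35 splits. Across genes, which are no independent replicates, the CB6 libraries deviated from their group means with a correlation of -0.958. If a batch was adjusted for before deposit, p-values without title style are too small. In the G libraries 107 genes, no member among them, differed by library offsets only (within 0.003), as a fill-in value would leave.

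Full values are given for members past the threshold and, in roles without one, for the member with the smallest p. Of other lists, up to 4 genes past the threshold or the 2 with the highest mean are named. Single results of 5 members, which stay in the counts over 35, are not reported here. Members and lists were chosen with earlier results of these data known. Podn, Amacr, Nudt7, Nudt12, Ppara, Zfp697, Hsd3b2 and Cyp4a10 were singled out after values were seen. The fit was tested on simulated data with independent noise in each library and no difference between title styles. That setting differs from these libraries, so the error rate of the calls here was not tested. Promoter windows on chromosome 18 were left out. Coordinates are from GENCODE M21 on GRCm38. Alternatives were quantile normalization, median scaling, a pseudocount of 32, other filters, no trend, title style, the G libraries alone, leaving out each library, no fill-in genes and thresholds of 0.01 and 0.1.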

Additional observations from a re-analysis of the deposited data

How the results depend on the processing

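Hao2 and Scp2 kept their direction and stayed past the threshold in all 18 alternatives, with log2 fold changes of 1.71 to 2.13 and 1.10 to 1.41. Some of the 18 could not lose a call. Omitting the filter repeated the reported fit, since it removed 0 genes, and a threshold of 0.1 keeps every call. Nudt19 was lost only in the libraries titled G alone. Acox3 was lost in 5 settings and Acox2 in 10, with ranges of -0.64 to -0.46 and -0.79 to -0.58. The count of higher members was 2 in every setting. The count of lower members, 3 as reported, was 0 in the libraries titled G alone (6 at an unadjusted p under 0.05 by limma), where 5 libraries were fitted, 1 at a threshold of 0.01 and 5 at 0.1, and from 1 to 3 with a library left out. The libraries behind the lowest count, 1, were knockdown replicate 2 and control replicate 4. The median over members ran from -0.044 to 0.036 with a library left out.

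Directions of members that did not pass turned as follows, and the cause was not tested. Hsd17b4 was at 0.00081 with quantile normalization, Pex26 at 0.04 with the pseudocount and Pex5l at 0.00011 with title style. In the libraries titled G alone, Acaa1b was at -0.11, Pex5 at -0.065 and Pex5l at 0.35. With a library left out, Acaa1b ran from -0.044 to 0.19, Cat from -0.078 to 0.13, Hsd17b4 from -0.044 to 0.036, Pex16 from -0.14 to 0.062, Pex26 from -0.62 to 0.72, Pex3 from -0.075 to 0.046, Pex5 from -0.039 to 0.10, Pex5l from -0.12 to 0.21, Pex6 from -0.0073 to 0.16 and Pipox from -0.013 to 0.11. No paired analysis was possible because the labels give no number or animal that ties a knockdown library to a control library.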

Other observations

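Genes within 500 kb of the 5 members past the threshold, looked up after the values were seen, mostly did not pass. Of all genes 3.02% passed, and whether neighbours passed more often was not tested. Near Hao2, 4 genes were measured, and Zfp697, a zinc finger gene, fell (log2 fold change -0.45; adjusted p = 0.0169 by limma), opposite to Hao2. Hsd3b2, a steroid dehydrogenase gene of the same neighbourhood, was at -1.79 without passing (adjusted p = 0.0748 by limma). Near Scp2, 11 genes were measured, and the overlapping Podn passed. None of the 7 genes near Acox2, 6 near Acox3 and 13 near Nudt19 passed by limma.

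Cyp4a10, a PPAR alpha target, was at 11.30, 10.97 and 11.62 in knockdown and at 10.02, 10.91, 9.43 and 9.43 in control libraries. Control replicate 2 was close to the knockdown libraries, and p was 0.0571 by exact permutation. Among the 30 members described singly, 0 had a control library that stood apart from the other controls by Dixon's criterion at the 95% level.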
